A study of Mus musculus with 2 samples.

Results

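The deposited annotation of this mouse tumor series gives every cell a class, a cluster and 1 of 3 copy number groups, named CNV1, CNV2 and CNV3. The cells described here are the 3089 cells of the class Tumor that carry the label CNV2 (799 cells) or CNV3 (2290 cells), out of 3267 tumor cells and 11456 cells in all. CNV2 was compared with CNV3 within a library and within a deposited cluster wherever both groups had at least 30 cells. This left 4 strata with 2320 cells: clusters C01, C04 and C08 of the wild-type (WT) library and cluster C01 of the S303/7A library. They held 404 CNV2 and 412 CNV3 cells in WT C01, 88 and 679 in WT C04, 33 and 349 in WT C08, and 202 and 153 in S303/7A C01.

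The libraries come from tumors engrafted in WT mice and in mice whose heat shock factor 1 (HSF1) carries alanine in place of serine at residues 303 and 307 (S303/7A). Each genotype gave 1 library, for which the design text speaks of tumors pooled from 4 mice, so animals cannot be told apart and nothing here has a replicate check. Live cells with and without the leukocyte surface marker CD45 were sorted and mixed 5 to 1 before droplet libraries were made. The genotype is that of the host. The labels do not say which tumor line was engrafted, whether it is 1 clone, how old the mice were or how the copy number groups were called.

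Tumor cells often carry extra or missing copies of whole chromosomes or chromosome arms. A gain or loss shifts the RNA output of most genes on the affected stretch by a modest amount in the same direction, so subclones of 1 tumor can be told apart by expression averaged along the genome. Genes on other chromosomes can differ as well, either as targets of a gene in the changed region or because subclones differ in cell state. Groups called in this way are by construction separated on the chromosomes that defined them. Since CNV2 and CNV3 were named for copy number and the files hold no DNA measurement, all values below describe how the groups differ in RNA, and none is a test.

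The identity of the tumor class was checked first. Epithelial markers (5 measured, among them the adhesion protein gene Epcam) summed to at most 0.00582 UMIs per 10000 UMIs of a cell (CP10K) in any group, with 2 to 4 of the 5 at 0 in both groups, and melanocytic markers (2 measured) to at most 0.118. UMIs (unique molecular identifiers) are tags that let each captured RNA be counted once. The intermediate filament Vim stood at 34.4 to 73.5 CP10K and the type I collagen chain Col1a2 at 6.40 to 16.1, so these cells have a mesenchymal profile. Ddx3y, a gene of the Y chromosome, was read at 0.336 to 0.693 CP10K in both groups of all 4 strata. Between libraries 48 cell barcodes were shared, 4 of them in the tumor class. In the 4 strata the median depth of CNV2 cells was 0.832 to 0.954 of that of CNV3 cells (medians of 17933 to 33140 against 18790 to 35649 UMIs), and the median mitochondrial share was 3.02 to 3.78% against 3.13 to 3.92%.

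Both groups were found in every tumor cluster of both libraries, in unequal shares. CNV2 made up 23.4% of WT tumor cells (exact Clopper-Pearson 95% interval 21.7 to 25.2) and 27.1% of S303/7A tumor cells (24.2 to 30.0). Cluster C01 held most of it, with 43.9% CNV2 in WT and 52.2% in S303/7A. The CNV2 share was 11.3% and 18% in C04, 8.42% and 5.02% in C08, and 8.79% and 9.56% in C14, in the order WT and S303/7A. Seen from the groups, 74.0% of WT and 79.8% of S303/7A CNV2 cells lay in C01, against 24.9% and 24.1% of CNV3 cells. In WT, 41.1% of CNV3 cells lay in C04, whose mitosis genes summed to 27.4 CP10K in CNV3 against 2.05 in C01, and in S303/7A 41.2% lay in C08, a cluster with much bone matrix RNA (161 CP10K in WT CNV3 against 45.8 in C01). A comparison of the groups over whole libraries would therefore mix cluster with copy number group, which is why clusters were kept apart. The sort and mixing set the balance of leukocytes and other cells. The intervals cover counting error only.

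Genes of chromosome 7 were higher in CNV2 than in CNV3 in all 4 strata, and genes of chromosomes 15 and 19 were lower. Expression was compared as the log2 ratio of mean CP10K, CNV2 over CNV3, with 0.1 CP10K added to both, for genes whose mean of both groups was at least 0.2 CP10K (4977 to 5055 genes in a stratum). The median over all these genes was 0.02 in WT C01, 0.05 in WT C04, 0.12 in WT C08 and 0.03 in S303/7A C01. Because of the shift in WT C08, chromosome medians are given minus the all-gene median of the stratum. Genes of chromosome 7 stood 0.20, 0.21, 0.23 and 0.21 higher in CNV2. Genes of chromosome 19 stood at -0.20, -0.23, -0.23 and -0.21, and those of chromosome 15 at -0.17, -0.17, -0.13 and -0.16. Chromosome 11 (0.06, 0.09, 0.08 and 0.05) and X (0.06, 0.17, 0.17 and 0.05) were higher by less. The other 15 autosomes had medians over the 4 strata between -0.07 and 0.06 on this scale. Chromosome 12 reached 0.14 in WT C08 but stood at -0.01 in WT C01, so its position changed with the cluster.

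**Figure D1:**
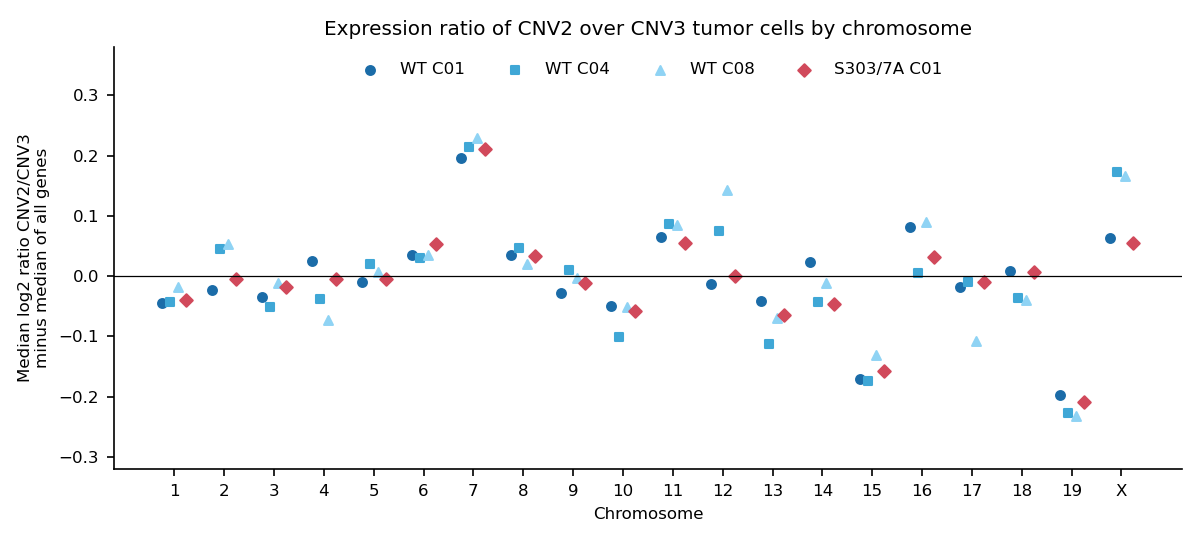
Each point is the median log2 ratio of CNV2 over CNV3 over the tested genes of a chromosome, minus the median of all tested genes of that stratum. Chromosome 7 lies between 0.20 and 0.23 in all 4 strata, chromosome 19 between -0.23 and -0.20, and chromosome 15 between -0.17 and -0.13.

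In the 4 strata that were too small for the comparison, chromosome 7 was again higher and chromosomes 15 and 19 lower in CNV2. With 13 to 24 CNV2 cells each, WT C14 and S303/7A C04, C08 and C14 gave uncentred medians of 0.18 to 0.29 for chromosome 7, -0.20 to -0.02 for chromosome 15 and -0.20 to -0.08 for chromosome 19. The share of a group's UMIs that fell on chromosome 7 was 9.79 against 8.47% in WT C01, 10.0 against 8.52% in WT C04, 9.84 against 8.25% in WT C08 and 9.91 against 8.57% in S303/7A C01, CNV2 before CNV3. The ratio of these shares was 1.16 to 1.19 in the 4 strata.

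Single genes of chromosome 7 were counted next. Of 283 genes of chromosome 7 measured in all 4 strata, 209 (73.9%) were higher in CNV2 in every stratum and 2 (0.707%) lower in every stratum. Over all 4232 genes measured in all 4 strata, 23.8% were higher in every stratum and 12.4% lower. On chromosome 19, 100 of 194 genes (51.5%) were lower in CNV2 in every stratum and 1 was higher. On chromosome 15, 72 of 189 (38.1%) were lower and 7 higher. Chromosome 11 had 161 of 372 (43.3%) higher, and X had 44 of 118 (37.3%). No other chromosome passed 32.1% in either direction, the highest being chromosome 6.

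The abundant genes of chromosome 7 were mostly higher in CNV2, and exceptions were present. Genes were taken here by level, 6 for each of these chromosomes, and not by their difference. Selenow, a small selenoprotein gene, stood at 13.1 against 11.4 CP10K in WT C01, 12 against 9.82 in WT C04, 11 against 9.64 in WT C08 and 11.8 against 9.78 in S303/7A C01, a log2 ratio of 0.19 to 0.28. Ftl1, the ferritin light chain, was higher by 0.20, 0.25, 0.60 and 0.04, and Ifitm3, an interferon-induced membrane protein gene, by 0.17, 0.62, 0.41 and 0.20. Ifitm2 was higher in all 4 strata too, by 0.15 to 0.43. Nupr1, a stress-induced chromatin factor, was higher in 3 strata by 0.30 to 0.31 and stood at -0.05 in WT C04. Lgals7, a galectin, differed in sign between clusters: it was at -0.12 and -0.20 in C01 of both libraries and at 0.68 and 0.87 in WT C04 and C08.

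The chromosome 19 genes gave a more even picture. Ferritin heavy chain, Fth1, stood at 119 against 145 CP10K in WT C01, 71.5 against 82.2 in WT C04, 138 against 157 in WT C08 and 108 against 143 in S303/7A C01, so it was lower in CNV2 in all 4 strata while its partner Ftl1 on chromosome 7 was higher. The nuclear noncoding RNA Malat1 (-0.28 to -0.11), the ribosomal and ubiquitin-like fusion gene Fau (-0.29 to -0.18), the elongation factor subunit Eef1g (-0.30 to -0.11) and the respiratory chain gene Cox8a (-0.33 to -0.20) were lower in all 4. Cofilin, Cfl1, was lower in 3 strata by -0.29 to -0.17 and stood at 0.03 in WT C08.

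On chromosome 11 the abundant genes did not share the higher median. The histone gene H3f3b was higher in all 4 strata (0.14 to 0.39), whereas the ribosome-associated protein gene Rack1 (-0.09 to -0.07) and the initiation factor Eif1 (-0.11 to -0.05) were slightly lower in all 4. Ppia (-0.25 to 0.16), Actg1 (-0.09 to 0.51) and Ubb (-0.17 to 0.33) had both signs. On X, the actin-binding Tmsb4x (0.07 to 0.73) and the proteoglycan gene Bgn (0.14 to 0.78) were higher in all 4 strata, and Pgk1, a glycolytic enzyme gene, was lower in C01 of both libraries (-0.35 and -0.17) and higher in WT C04 (0.46) and C08 (0.85).

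On chromosome 15 the abundant genes were lower in CNV2 with more variation between them. Dap, a gene linked to cell death and autophagy, stood at 5.55 against 7.41, 7.47 against 9.84, 6.86 against 10.1 and 5.84 against 8.14 CP10K, a log2 ratio of -0.55 to -0.39. The initiation factor subunit Eif3h (-0.44 to -0.25), the ATP synthase gene Atp5g2 (-0.23 to -0.08) and Ly6e (-0.67 to -0.20) were lower in all 4 strata. Galectin 1, Lgals1, was lower in 3 strata (-0.46 to -0.35) and level in WT C08, at 67.4 against 67.3 CP10K. Pfdn5, a subunit of the prefoldin chaperone, stood at -0.04 to 0.08. Hsf1 itself lies on chromosome 15 and was low in all groups, at 0.182 to 0.314 CP10K; its log2 ratios were -0.13, 0.05, -0.02 and 0.10, with no common direction, and in S303/7A C01 it was under the minimum level.

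Along chromosome 7 the difference covered the whole length. In bins of 20 Mb with at least 10 tested genes, 8 of 8 bins were higher in CNV2 in all 4 strata, at 0.14 to 0.34 minus the all-gene median. On chromosome 15, 6 of 6 bins were lower (-0.25 to -0.04), and on chromosome 19, 3 of 3 (-0.26 to -0.11). Bins of 10 Mb gave 13 of 13, 6 of 6 and 6 of 6. On chromosome 11, 7 of 12 bins of 10 Mb were higher in all 4 strata, more than fit between 60 and 120 Mb. On X, 1 of 4 bins of 10 Mb was higher in all 4 strata. Without centring, 8 of 8 bins of 20 Mb stayed higher on chromosome 7. On chromosome 15, 3 of 6 were then lower in all 4 strata, and on chromosome 19, 2 of 3. In bins of 20 Mb, minus the all-gene median, chromosomes 11 and X were different, because the higher values were limited to a part. On chromosome 11 the 3 bins from 60 to 120 Mb were higher in all 4 strata, and the others were not. On X the bins up to 60 Mb were higher in CNV2 in all 4 strata, by more in WT C04 and C08 than in C01, and so was the bin from 120 to 140 Mb, whereas the bins from 60 to 80 Mb and from 100 to 120 Mb were near 0 in C01 and lower in WT C08.

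**Figure D2:**
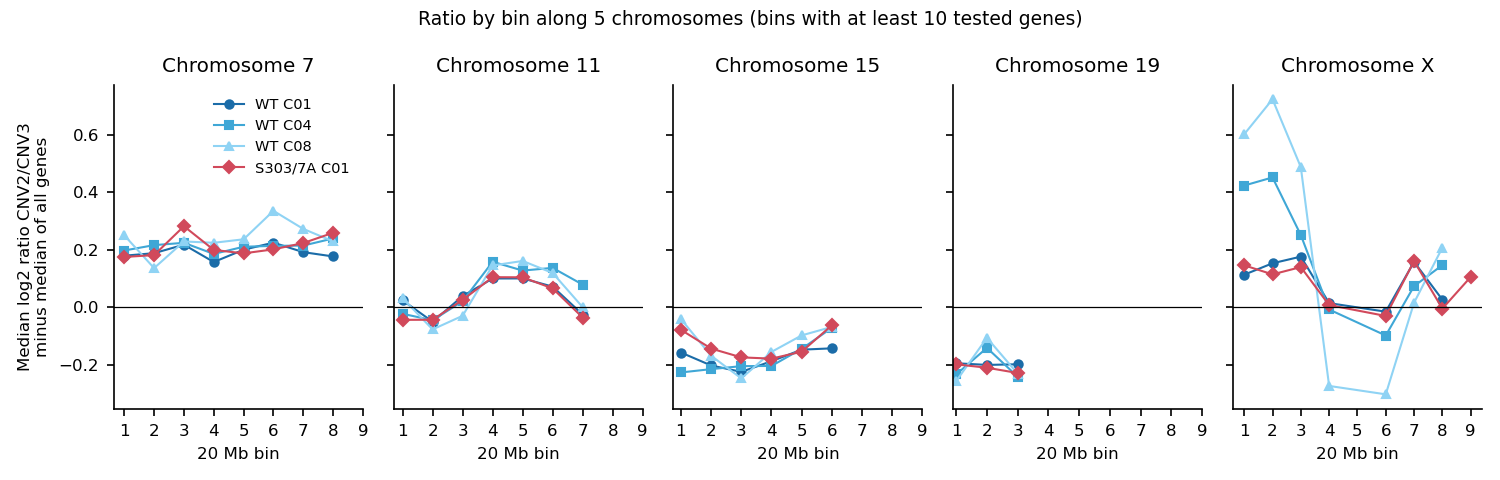
Median log2 ratio of CNV2 over CNV3, minus the all-gene median, in consecutive 20 Mb bins along 5 chromosomes, with bins under 10 tested genes left out. Chromosome 7 is higher in 8 of 8 bins, chromosomes 15 and 19 are lower in all of theirs, and the X curve is high in its first 3 bins, above all in WT C04 and WT C08.

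The start of X separated clusters as well as copy number groups. Without centring, the bin from 20 to 40 Mb had a median of 0.17 in WT C01 and 0.14 in S303/7A C01 against 0.50 in WT C04 and 0.84 in WT C08, each from 15 or 16 genes. The bins before and after it gave 0.13 and 0.20 in WT C01, 0.47 and 0.30 in WT C04, and 0.72 and 0.61 in WT C08. Within this stretch lies Ddx3x, an RNA helicase gene, which stood at 0.856 against 0.674 CP10K in WT C01, 0.833 against 0.599 in WT C04, 0.854 against 0.526 in WT C08 and 0.880 against 0.621 in S303/7A C01. Timp1, an inhibitor of matrix metalloproteinases, also lies on X and was higher by 0.23 and 0.08 in C01 of WT and S303/7A but by 1.01 and 1.48 in WT C04 and C08. Further along X, the translocon-associated protein gene Ssr4 was level in C01 (0.06 and -0.02) and lower in CNV2 in WT C04 (-0.61) and WT C08 (-0.76), and G6pdx, the first enzyme of the pentose phosphate pathway, did likewise (0.12 and 0.04 against -0.65 and -0.81). Parts of X thus moved in opposite directions in these clusters: the median gene of X was higher in CNV2 in WT C04 and C08, yet X took a smaller share of all UMIs there (3.82 against 4.02% and 3.88 against 4.54%).

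Cell by cell, the groups overlapped on each of the 5 chromosomes examined (7, 11, 15, 19 and X). The median share of a cell's UMIs on chromosome 7 was 9.88% in CNV2 and 8.32% in CNV3 in WT C01, 10.0% and 8.35% in WT C04, 10.0% and 8.19% in WT C08, and 9.88% and 8.36% in S303/7A C01. Between 4.01 and 9.95% of CNV3 cells lay above the CNV2 median, and 4.95 to 9.09% of CNV2 cells lay below the CNV3 median. On chromosome 19 the medians were 5.89 and 6.85%, 4.30 and 5.01%, 5.44 and 6.46%, and 5.57 and 6.52%, and 78.4 to 91.0% of CNV3 cells lay above the CNV2 median. On chromosome 15 they were 4.30 and 5.17%, 5.02 and 5.96%, 4.58 and 4.88%, and 4.26 and 5.03%. On that chromosome 83.5 to 85.6% of CNV3 cells lay above the CNV2 median in 3 strata and 63.6% in WT C08, where the groups overlapped most.

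In the first 60 Mb of X, which hold 163 genes of the table, CNV3 cells spread over a low and a high range. This stretch was picked after the bin values had been seen. It took 0.724% of the UMIs of the median CNV2 cell in WT C01, 0.782% in WT C04, 0.744% in WT C08 and 0.801% in S303/7A C01, from 124 to 251 UMIs in the median cell. Among CNV3 cells of WT C04, 59.2% had under 0.5%, 10.9% had 0.5 to 0.65%, and 29.9% had more, so few cells lay between. This gap was not seen everywhere: in the small strata S303/7A C04 and C08, 31.4 and 43.9% of CNV3 cells had 0.5 to 0.65%. With a limit of 0.6%, also picked after the values had been seen, the share of cells below it was 33.0% in CNV3 of WT C01 (exact Clopper-Pearson 95% interval 28.5 to 37.8) and 33.3% (25.9 to 41.4) in S303/7A C01. It was 68.5% (64.8 to 72.0) in WT C04 and 95.4% (92.7 to 97.4) in WT C08. In CNV2 the same share was 11.9% (8.89 to 15.4), 5.45% (2.75 to 9.53), 3.41% (0.709 to 9.64) and 15.2% (5.11 to 31.9) in that order of strata.

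The CNV3 group of cluster C01 was thus mostly made of cells with a high X value, and that of C08 of cells with a low one, in both libraries. In the small strata, CNV3 cells under 0.6% made up 82.7% in WT C14, 72.5% in S303/7A C04, 93.5% in S303/7A C08 and 83.2% in S303/7A C14. Low values on X and on chromosome 7 did not always go together. Over all WT tumor clusters, 54.1% of 1654 CNV3 cells had under 9% of UMIs on chromosome 7 and under 0.6% in the X stretch, 24.9% were low on chromosome 7 only, 13.1% low on X only and 7.92% low on neither. In S303/7A these shares of 636 CNV3 cells were 59.7, 18.9, 14 and 7.39%. Of 546 WT CNV2 cells 75.3% were low on neither, and of 253 S303/7A CNV2 cells 76.3%, while 4.40% and 4.74% were low on X only. The median chromosome 7 share of CNV3 cells was 8.27% in those low on X and 8.35% in the others in WT C01, 8.40 and 8.20% in WT C04, 8.19 and 8.51% in WT C08, and 8.34 and 8.43% in S303/7A C01, so chromosome 7 was low whichever the X value. The 48 CNV2 cells of WT C01 that were low on X had a median chromosome 7 share of 8.69%, against 9.94% in the other 356, closer to the CNV3 median of 8.32%.

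**Figure D3:**
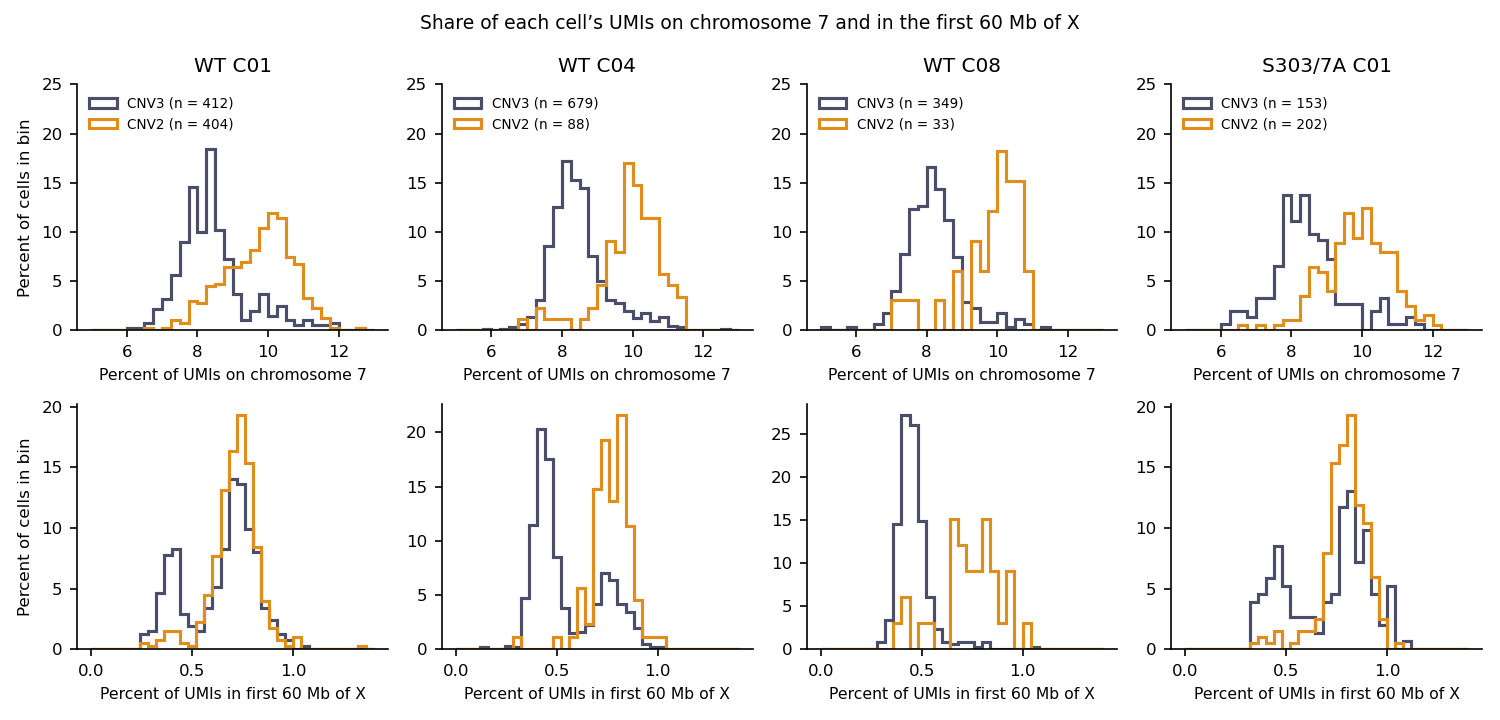
Distribution over single cells of the share of UMIs on chromosome 7 (upper row) and in the first 60 Mb of X (lower row), as percent of the cells of each group, for CNV2 and CNV3 in each stratum. The chromosome 7 peaks sit near 10% for CNV2 and near 8.3% for CNV3, and the X stretch shows a CNV3 peak under 0.6% that holds 33.0% of CNV3 cells in WT C01 and 95.4% in WT C08.

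To give the level of each group against cells outside the tumor class, both were set against the CNV1 cells of the class Stromal from the same library (54 cells in WT, 60 in S303/7A), again minus the all-gene median. Cell type differs too in this comparison. On chromosome 7, CNV2 lay at -0.02 to 0.06 and CNV3 at -0.20 to -0.16. On chromosome 19, CNV2 lay at -0.04 to 0.08 and CNV3 at 0.13 to 0.30. On chromosome 15, CNV2 was below the stromal cells (-0.12 to -0.09) and CNV3 at or above them (0.00 to 0.12). In the stretch of chromosome 11 from 60 to 120 Mb, CNV2 was the group that differed, at 0.11 to 0.19 against 0.01 to 0.06. In the first 60 Mb of X, CNV2 lay at -0.13 to 0.30, and CNV3 between -0.69 in WT C08 and 0.13 in S303/7A C01. Of the stromal cells themselves 38.9% in WT and 35% in S303/7A had under 0.6% of UMIs in that stretch.

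With CNV1 immune cells as the baseline the order of the groups was the same but the zero point moved. Chromosome 7 then stood at -0.18 to -0.10 in CNV2 and -0.37 to -0.28 in CNV3, chromosome 19 at 0.17 to 0.21 and 0.38 to 0.52, and chromosome 15 at 0.09 to 0.23 and 0.23 to 0.39. The difference between CNV2 and CNV3 on these chromosomes does not need a baseline, while the statement that 1 of them lies at the level of normal cells does. The 137 tumor cells of C01 labelled CNV1 (105 in WT, 32 in S303/7A) lay on the side of CNV2: their chromosome 7 medians against stromal cells were 0.06 and 0.07, and their median cell had 10.0% and 9.96% of UMIs on chromosome 7.

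Few genes differed strongly between the groups. A difference of 1.5-fold or more was reached by 65 of 5029 genes (1.29%) higher and 29 (0.577%) lower in CNV2 in WT C01. The shares were 2.67 and 1.5% in WT C04, 8.62 and 3.3% in WT C08 and 1.93 and 0.836% in S303/7A C01. WT C08 rests on 33 CNV2 cells, and the part of counting noise in its larger share was not tested. In every stratum, 8 of 4232 genes (0.189%) were at least 1.5-fold higher and 6 (0.142%) at least 1.5-fold lower. The 8 were Col1a1, Itm2a, Col6a1, Col6a2, Mical2, Arl6ip1, Nr2f2 and Fbn2, of which Mical2, Arl6ip1 and Nr2f2 lie on chromosome 7. The 6 were Lgals3, Mgst3, Avpi1, Grb10, Syngr1 and S100a10, of which Avpi1 lies on chromosome 19 and Syngr1 on chromosome 15.

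Col1a1, the alpha 1 chain of type I collagen (chromosome 11, 94936224 to 94953042 on the plus strand of GRCm38), ranked first among genes higher in CNV2 by its weakest stratum. Its mean level was 4.44 CP10K in CNV2 and 0.901 in CNV3 in WT C01, 1.36 and 0.0803 in WT C04, 2.40 and 0.0998 in WT C08, and 3.26 and 0.689 in S303/7A C01. CNV2 was higher in each stratum, and the lowest CNV2 level, that of WT C04, lay above the highest CNV3 level, that of WT C01. The log2 ratios were 2.18, 3.02, 3.65 and 2.09. The ratio of summed UMIs was 4.64 (exact conditional 95% interval 4.27 to 5.05) in WT C01 and 4.87 (4.26 to 5.59) in S303/7A C01, and 14.1 and 28.2 in WT C04 and C08. A Col1a1 UMI was found in 72.5, 55.7, 57.6 and 75.7% of CNV2 cells and in 37.4, 13.5, 9.46 and 34.0% of CNV3 cells, against 1.44% of WT and 1.94% of S303/7A CD8 T cells, which should lack it. Their median depth was 6294 and 8325 UMIs, less than that of the tumor cells. With every cell thinned to 1000 UMIs the shares were 25.5 against 5.83% in WT C01 and 19.8 against 5.88% in S303/7A C01, with 0.144 and 0% in CD8 T cells. The cell with the most Col1a1 UMIs gave 18% of them in CNV2 of WT C04 and 19% in WT C08, so these values did not rest on 1 cell.

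The partner chain did not follow to that extent. Type I collagen is a trimer of chains from Col1a1 and Col1a2. Col1a2 stood at 15.2 against 13.1 CP10K in WT C01, 10.0 against 6.40 in WT C04, 11.1 against 7.64 in WT C08 and 16.1 against 13.3 in S303/7A C01, log2 ratios of 0.21, 0.64, 0.54 and 0.28. In CNV3 of WT C04 and WT C08, Col1a1 RNA was thus read at 0.0803 and 0.0998 CP10K while Col1a2 was read at 6.40 and 7.64, on a scale that counts 3′ ends and does not depend on gene length.

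Collagen and matrix genes as a list were higher in CNV2 in all 4 strata. Of 25 genes on the list, 17 of 19 measured were higher in WT C01, 13 of 15 in WT C04, 17 of 18 in WT C08 and 18 of 19 in S303/7A C01, beside 54.7, 59, 64.7 and 55.3% of all genes. The medians were 0.47, 0.73, 0.98 and 0.51, beside 0.02, 0.05, 0.12 and 0.03 for all genes. Of 15 members measured in all 4 strata, 13 were higher in each, beside 23.8% of all genes. Col3a1, the type III collagen chain, stood at 17.5 against 12.6, 3.53 against 1.80, 13.8 against 6.96 and 15.4 against 10.4 CP10K. Sparc, a collagen-binding matrix protein gene, was higher by 0.47, 0.90, 0.84 and 0.48, and the type VI chains Col6a1 and Col6a2 by 0.63 to 1.03 and 0.66 to 1.28. Lum, the small proteoglycan lumican, was at 2.20 against 0.671 CP10K in WT C01 and 2.18 against 0.635 in S303/7A C01, and too low to be counted in WT C04. Fibronectin, Fn1, went the other way in all 4 strata, at 9.40 against 11.3, 9.94 against 10.1, 20.2 against 27.8 and 8.83 against 14.7 CP10K. The list is not an arm of 1 chromosome: its named members lie on chromosomes 1, 6, 10 and 11.

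Other named genes with 1 sign in all 4 strata lay outside the matrix list. The growth factor receptor Fgfr1 was higher in CNV2 by 0.46, 0.53, 0.95 and 0.65, Pdgfrb by 0.57, 1.24, 1.26 and 0.66, and Pdgfra by 0.47, 0.16, 0.62 and 0.74. Nrp1, a coreceptor for semaphorins and vascular growth factor, was higher by 0.58 to 1.39, and Igfbp3, a binding protein of insulin-like growth factors, by 0.54 to 3.66. Nr2f2, a nuclear receptor gene of chromosome 7 (70351944 to 70366735, minus strand), stood at 1.85 against 1.05, 1.34 against 0.671, 2.64 against 1.38 and 2.03 against 1.29 CP10K. Itm2a, a membrane protein gene of X, was at 6.20 against 3.78, 0.502 against 0.151, 3.36 against 0.736 and 5.56 against 2.64 CP10K. These genes are also expressed by fibroblasts and pericytes. The 8 fibroblast markers summed to 8.07 against 5.81 CP10K in WT C01, 1.66 against 1.70 in WT C04, 5.77 against 1.92 in WT C08 and 9.18 against 5.52 in S303/7A C01, with 0 to 2 of 8 at 0 in both groups. The 7 pericyte and smooth muscle markers measured summed to 1.51 to 2.42 against 0.921 to 1.47, with 2 of the 7 at 0 in both groups. Besides Pdgfrb, 1 of these 7 was measured in all 4 strata: Cspg4, a pericyte proteoglycan gene, which was lower in CNV2 in each (-0.42 to -0.13). The part of both lists in the matrix difference was not tested.

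**Figure D4:**
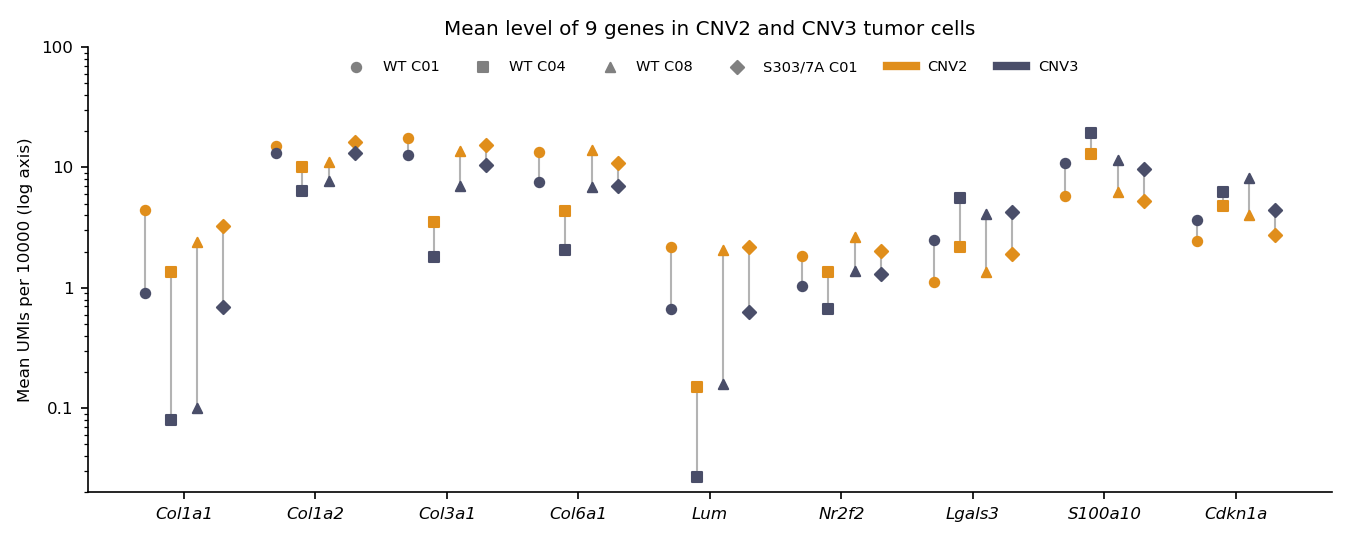
Mean level of 9 genes in CNV2 and CNV3 cells of each stratum on a log axis of UMIs per 10000, each pair joined by a line. Col1a1 and Lum show the widest gaps with CNV2 above, Col1a2 a narrow gap in C01, and Lgals3, S100a10 and Cdkn1a have CNV3 above in all 4 strata.

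On the CNV3 side, Lgals3, the gene of galectin 3, a lectin that binds cell surface sugars (chromosome 14, 47367751 to 47386160, plus strand), led. It stood at 1.11 CP10K in CNV2 and 2.49 in CNV3 in WT C01, 2.18 and 5.53 in WT C04, 1.34 and 4.14 in WT C08, and 1.90 and 4.26 in S303/7A C01. All 4 CNV3 values exceeded the CNV2 value of the same stratum, by -1.55 to -1.10 on the log2 scale. Lgals3 RNA was also common outside the tumor class: 65.7% of WT and 85.3% of S303/7A CD8 T cells had a UMI of it. After the thinning used for Col1a1, these shares were 26.6 and 36.0%. The thinned shares of CNV2 cells were 10.4, 19.3, 15.2 and 13.4% in the order of strata above. Those of CNV3 cells were 20.4, 39.0, 28.4 and 28.1%. The part of RNA from other cells in the Lgals3 values was not tested. In the small C14 strata the ratio of summed UMIs was 0.886 and 1.06, so the difference was absent or slight there. S100a10, a partner of annexin A2 at the membrane, was at 5.74 against 10.8, 12.9 against 19.4, 6.23 against 11.6 and 5.29 against 9.72 CP10K. Mgst3, a microsomal glutathione transferase gene, was lower in CNV2 by -1.17 to -0.77, the adaptor protein gene Grb10 by -0.82 to -0.62 and Avpi1 by -1.07 to -0.75. S100a4, which like S100a10 encodes a small calcium-binding-family protein, was lower by -0.94 to -0.23.

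Genes that p53 switches on were lower in CNV2. The protein p53 stops the cell cycle or starts cell death after DNA damage, and Cdkn1a, the cell cycle inhibitor p21, is its best known target. Cdkn1a stood at 2.47 against 3.68 CP10K in WT C01, 4.82 against 6.21 in WT C04, 4.01 against 8.21 in WT C08 and 2.73 against 4.44 in S303/7A C01. Of 20 list members, 8 of 12 measured were lower in WT C01, 7 of 10 in WT C04, 9 of 11 in WT C08 and 9 of 12 in S303/7A C01, beside 45.3, 41, 35.3 and 44.7% of all genes. The medians were -0.11, -0.06, -0.22 and -0.21. Of 9 members measured in all 4 strata 6 were lower in each, beside 12.4% of all genes. Among the 6 were Ccng1 (-0.72 to -0.26), Zmat3 (-0.53 to -0.15) and Mdm2 (-0.52 to -0.09). Bbc3, a cell death gene of chromosome 7, was the opposite in the 2 strata where it was measured, at 0.22 and 0.04. Trp53, the gene of p53 itself, was at 0.06 to 0.14, slightly above 0 in all 4 strata, beside all-gene medians of 0.02 to 0.12. All 4 named targets lie on chromosomes 3, 10, 11 and 17.

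Other lists differed by less, or not in the same direction in all 4 strata. Chaperones of the endoplasmic reticulum, which fold secreted proteins such as collagen, were higher for 18 of 18 in WT C01, 12 of 17 in WT C04, 11 of 17 in WT C08 and 13 of 17 in S303/7A C01, beside 54.7, 59, 64.7 and 55.3% of all genes. The medians were 0.17, 0.09, 0.14 and 0.12, beside 0.02, 0.05, 0.12 and 0.03 for all genes, so in WT C08 the list stood near the level of all genes. Herpud1 (0.23 to 0.60) and Pdia4 (0.17 to 0.45) were higher in all 4. Immediate early genes, which respond within minutes to growth factors and to tissue handling, had medians of 0.21, 0.29, -0.05 and 0.30. Fos was higher in all 4 strata (6.82 against 5.29, 1.59 against 0.562, 2.55 against 1.72 and 7.94 against 3.44 CP10K) and Egr1 too (0.54 to 0.77), while Zfp36 was higher in 3 strata and lower in WT C08 (-0.91).

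Regulators of the mesenchymal state were split. Of 13 measured in all 4 strata, 5 were higher in CNV2 in each and 3 lower in each, beside 23.8 and 12.4% of all genes. Prrx1, a homeobox gene of connective tissue, was higher (0.20 to 0.46) and so was Twist1 (0.12 to 0.22). Hmga1, an architectural chromatin protein gene, was lower (-0.66 to -0.33), and so was Fosl1, an AP-1 transcription factor gene of chromosome 19, at 0.186 against 0.316, 1.11 against 2.43, 0.841 against 1.06 and 0.0993 against 0.196 CP10K, though its level was under the minimum in S303/7A C01. Vim was lower in C01 of both libraries (-0.51 and -0.45) and near level in WT C04 and C08 (0.06 and -0.07).

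Heat shock genes, the classical targets of HSF1, were near level, with medians of -0.04, 0.05, 0.09 and -0.07. In every stratum 2 of 18 were higher and 4 of 18 lower, beside 23.8 and 12.4% of all genes. Hspa8, a mainly constitutive member of the HSP70 family, stood at 14.6 against 18.3, 16.1 against 13.9, 10.7 against 11.8 and 13.3 against 16.5 CP10K. Bag3, a cochaperone gene of chromosome 7, was higher in all 4 strata (0.24 to 0.59). Among the 4 strata mitosis genes were abundant in WT C04, where 20 of 23 were higher in CNV2 (median 0.21, beside 0.05 for all genes, of which 59% were higher), among them Mki67 at 1.04 against 0.6 CP10K, itself a chromosome 7 gene. Glycolysis and hypoxia genes were lower for 15 of 16 in WT C01 (median -0.20, where 45.3% of all genes were lower) and mixed in the other strata (0.10, 0.02 and -0.05).

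Interferon and antigen presentation genes had no common direction over the 4 strata, and neither had immune markers. Interferon response genes had medians of -0.13, 0.31, -0.59 and -0.01, and class I presentation genes of 0.04, 0.30, -0.27 and -0.11. The 15 pan immune markers, among them Lyz2 and C1qb of myeloid cells, had medians of -0.19, 0.77, -0.78 and -0.39, and summed to 4.74 against 5.45 CP10K in WT C01, 7.60 against 4.59 in WT C04, 3.13 against 5.51 in WT C08 and 6.59 against 7.62 in S303/7A C01, with none of the 15 at 0. In CNV2 of WT C04, 1 cell gave 74% of the C1qb UMIs and 48% of the Lyz2 UMIs. The part of this RNA in the interferon values was not tested.

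The remaining lists gave these medians in the order of strata used above. DNA replication stood at 0.02, 0.09, 0.24 and 0.26, with 4 members measured outside WT C04. The integrated stress response, set off by lack of amino acids or by misfolded proteins, stood at -0.05, -0.17, 0.12 and 0.06, and the antioxidant response driven by Nrf2 at -0.07, -0.14, -0.14 and -0.13, lower in CNV2 in each stratum. Ligands of natural killer cell receptors stood at -0.06, 0.14, 0.07 and 0.04 from 1 to 4 genes, the bone matrix list at 0.14, 0.05, -0.21 and -0.37, and sex chromosome genes at -0.08, -0.10, 0.25 and -0.08. Of the endothelial markers Plvap alone was measured, at 0.35, 0.62, 0.37 and 0.12.

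**Figure D5:**
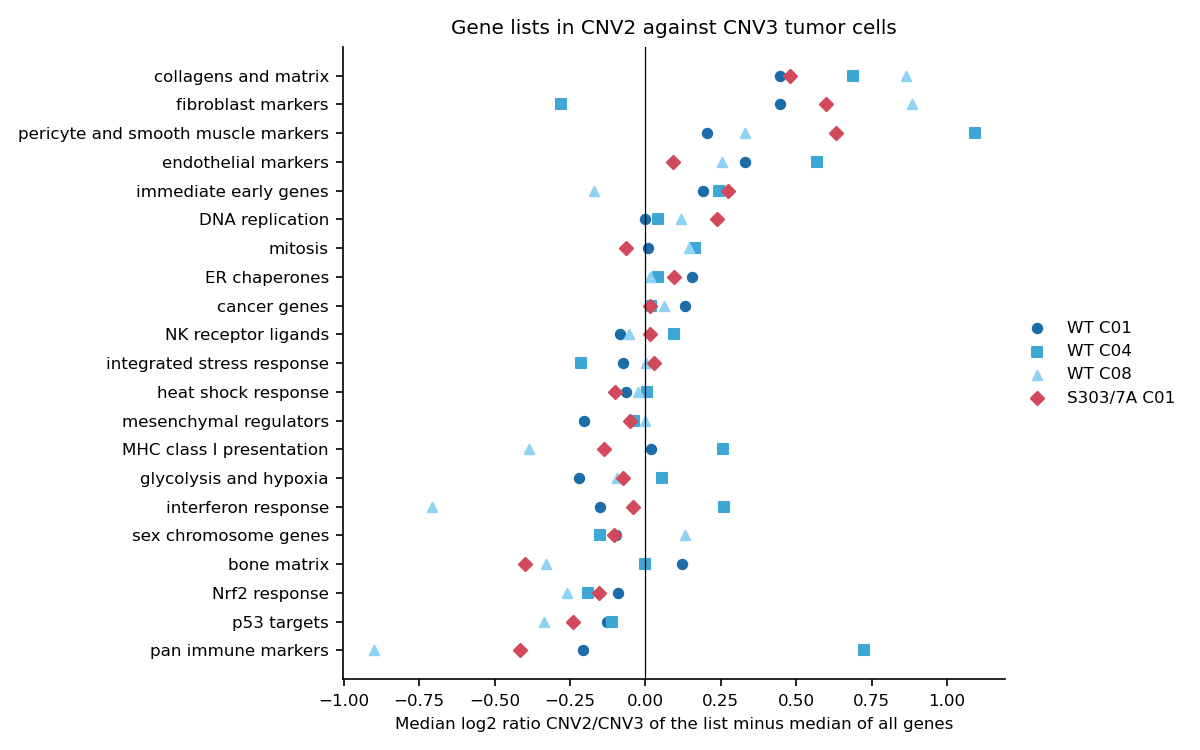
Median log2 ratio of CNV2 over CNV3 of each gene list, minus the median of all tested genes, by stratum. Collagens and matrix lie above 0 in all 4 strata and p53 targets below 0 in all 4, whereas pan immune markers, interferon response and class I presentation change side between strata.

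Genes often altered in cancer were examined one by one. Of 27 measured in all 4 strata, 10 were higher in CNV2 in each stratum and 3 lower in each, beside 23.8 and 12.4% of all genes. Igf1r, the receptor of insulin-like growth factor 1 on chromosome 7, was at 0.748 against 0.65, 0.541 against 0.447, 0.832 against 0.634 and 0.766 against 0.643 CP10K (log2 ratio 0.18 to 0.34). Smad4 (0.05 to 0.27), Arid1a (0.16 to 0.29), Setd2 (0.04 to 0.18) and Ccnd3 (0.08 to 0.60) were higher as well. The cell cycle kinase gene Cdk6 was lower, by -0.93 to -0.20. The chromosome 7 genes Ccnd1 (0.27, -0.03, 0.22 and 0.28) and Hras (0.16, -0.08, 0.45 and 0.03) were not higher in WT C04. Myc on chromosome 15 was low, at 0.0706 to 0.251 CP10K, and passed the minimum in WT C04 only, with -0.20 there.

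Cluster C01 allowed the comparison in both hosts, from cells that share no library. Of 4825 genes measured in both, 70.7% had the same sign of the CNV2 over CNV3 ratio. Across these genes Pearson's r was 0.70 and Spearman's rho 0.59, and r was 0.68 outside chromosome 7. Genes are not independent replicates, and gene differences that mark the deposited groups are shared by construction, so this is a description. Of 62 genes that were 1.5-fold higher in WT C01, 48 (77.4%) also passed in S303/7A C01, which is 52.7% of its 91. Of 26 that were 1.5-fold lower in WT C01, 16 (61.5%) also passed, which is 39.0% of 41. Col1a1 (2.18 and 2.09), Lgals3 (-1.10 and -1.12) and Avpi1 (-0.85 and -0.75) were nearly alike in both hosts. Fos (0.36 and 1.18) and Gbp2, an interferon-induced GTPase gene (-0.28 and -1.61), were farther apart. With 1 library for each genotype, whether any of these ratios depends on the host's HSF1 genotype could not be tested.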

How the data were processed

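Single tumor cells of 2 libraries were read from 1 table. Its values are natural log values: the authors deposited ln(1 + UMIs scaled to 100000 per cell). Total UMIs and detected genes per cell were deposited as counts, and mitochondrial content as percent. Per the submitters' processing notes, the tools were Cell Ranger and Seurat 3.0 and the builds are called mm10 and GRCm38. How cells were filtered, classed, clustered and given copy number groups is not given in the sources used here.

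UMI counts were recovered by undoing the log (99.9% of nonzero values within 0.1 of a whole number; numbers of detected genes matched in 11456 cells). Levels are mean CP10K. Log2 ratios use a pseudocount of 0.1, which understates low genes. Intervals are exact (Clopper-Pearson, or conditional for UMI ratios) at 95% and cover counting error only; cells are not replicates, so no p-value was made. Positions come from GENCODE M21 on GRCm38; 16234 genes had 1 position and 182 had none. Doublets were scored with Scrublet (scanpy 1.11.5) but left in the main values: its automatic threshold marked 62 WT cells (0.93%) and 8 in S303/7A (0.17%). An alternative therefore left out the 360 and 215 cells with the highest scores, the expected rate of 5.32 and 3.84% plus ties. Python 3.11.15, numpy and scipy were used. The measure was also run on counts simulated for WT C01 from 1 pooled profile, with sampling noise only. Further spread between cells and the other strata were not simulated, so that run does not cover them.

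Cells, gene lists (23) and the rule for named genes were chosen with earlier results of these data known. Named genes were the 12 highest and 12 lowest by their weakest stratum among genes of 1 sign in all 4 strata, the 3 members of each list with the largest absolute median, all measured cancer and sex chromosome genes, the 6 most abundant genes of each chromosome whose median was 0.1 or more from 0, and Hsf1. Mitochondrially encoded, ribosomal protein, Gm and Rik genes were left out of the choice of highest, lowest and most abundant genes. Col1a2, Col3a1, Sparc, Fn1, Timp1, G6pdx, Vim, Fosl1, Hmga1, Prrx1, Twist1, Bbc3 and Hspa8 were named after their values were seen, as were the first 60 Mb of X, chromosome 11 from 60 to 120 Mb and the cuts at 0.6 and 9%.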

Additional observations from a re-analysis of the deposited data

Results flagged for a closer look

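The bone matrix list had opposite signs in cluster C01 of the 2 libraries, with a median log2 ratio of CNV2 over CNV3 of 0.14 in WT and -0.37 in S303/7A. Each rests on 4 measured genes, and the difference was not tested.

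Some cells outside the tumor class carried a tumor copy number label. In the immune classes 71 WT cells were labelled CNV2 and 11 CNV3, of 4159, and 36 and 4 of 3729 in S303/7A.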

How the results depend on the processing

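Directions of the CNV2 over CNV3 ratios of chromosomes 7, 15 and 19 were kept under all alternatives run. Across these alternatives the log2 ratios ranged from 0.11 to 0.29, -0.16 to -0.05 and -0.22 to -0.07. The alternatives differed in the strata used and in the measure, with gene medians, centred medians and ratios of summed UMIs among them. Col1a1 (1.43 to 3.31) and Lgals3 (-1.39 to -0.95) kept theirs too. Values below are medians over strata. A value counts as moved beyond 1 SD over strata, for cell shares beyond their binomial interval and for counts beyond 1.5 times. The cause of each move was not tested. Single genes are listed only where the sign turned and the main median was 1.5-fold or more, and 187 other moves of single genes are left out. Named genes with smaller medians changed sign too, among them Malat1 (-0.19 to 0.16), Pdia4 (-0.07 to 0.38) and Trp53 (-0.11 to 0.12). No paired test was made, because no test was run. In the main values both groups were compared within each library and cluster, and for C01 the report gives both libraries.

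With a pseudocount of 1, chromosomes 7, 11, 15 and 19 stood at 0.11, 0.046, -0.052 and -0.072, p53 targets at -0.074, chaperones of the endoplasmic reticulum (ER) at 0.072 and the Nrf2 response at -0.064, and 1 gene was 1.5-fold higher and 1 lower in every stratum. With a minimum of 0.5 CP10K, DNA replication turned to -0.046, ER chaperones stood at 0.093, Nrf2 at -0.053, cancer genes at 0.19, sex chromosome genes at 0.27 and pericyte markers at 0.95, with 472 genes higher and 323 lower in every stratum and 4 at 1.5-fold higher. With no minimum, chromosomes 7, 11, 15, 19 and X stood at 0.11, 0.045, -0.046, -0.074 and 0.038, Nrf2 at -0.091 and endothelial markers turned to -0.023, with 2183 genes higher and 1400 lower, and 21 and 10 at 1.5-fold. Thinned to 1000 UMIs, chromosome 19 stood at -0.13, ER chaperones at 0.081, ligands of natural killer (NK) cell receptors at 0.39, Nrf2 at -0.097, cancer genes at 0.38 and sex chromosome genes at 0.23, endothelial markers turned to -0.059, Hspa4l to 0.28 and Cyr61 to -0.073, and 387 genes were higher and 300 lower.

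With clusters pooled, X stood at 0.26, heat shock at -0.075, mitosis at -0.40, DNA replication at 0.036, p53 targets at -0.29, the integrated stress response at -0.46, collagens at 0.99, bone matrix at -0.61, immediate early genes at 0.51, interferon at 0.38, class I presentation at 0.27, NK ligands at 0.26, Nrf2 at -0.41 and sex chromosome genes at 0.23. Cxcl10 turned to 0.16 and Ifit1 to 0.12, and counts were 2314 and 1627, and 211 and 104 at 1.5-fold. In WT alone 10 genes were 1.5-fold lower. In S303/7A alone, which has 1 stratum, mitosis stood at -0.037, bone matrix at -0.37 and endothelial markers at 0.12, with counts of 2780 and 2245, and 97 and 42. Scaled outside mitochondrial and ribosomal protein genes, ER chaperones stood at 0.088 and 11 genes were 1.5-fold lower. Without the 10 genes with most UMIs, summed UMIs of chromosome 19 stood at -0.21, and the ratio of median cell shares was 1.25 for chromosome 7, 1.11 for 11, 0.903 for 15 and 1.13 for X. Against immune cells, CNV2 stood at -0.12, 0.13 and 0.18 on chromosomes 7, 15 and 19, with the sign on 15 turned, and CNV3 at -0.33, 0.26 and 0.41.

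Among alternatives chosen after seeing the data, adding the small strata gave 0.21 for sex chromosome genes, counts of 299 and 178, and 2 and 0 at 1.5-fold. Minus the all-gene median, chromosome 19 stood at -0.22, ER chaperones at 0.069, Nrf2 at -0.17 and cancer genes at 0.039.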

Other observations

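In the class Stromal, 67 WT cells carried the label CNV2 and 42 CNV3, of 163, and 62 and 16 of 138 in S303/7A. The cells with the highest doublet scores made up 13.6% of WT tumor cells labelled CNV1, 2.75% of those labelled CNV2 and 3.69% of those labelled CNV3. In S303/7A the shares were 6.52, 1.58 and 1.73%.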
